A study of Homo sapiens with 6 samples.

Results

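The genes described here act in the unfolded protein response of the endoplasmic reticulum and in the integrated stress response. They were chosen by name as 38 genes, of the 19775 genes that had a probe set annotated with their symbol alone, and all of those probe sets were used. SYVN1 shares its probe set with another symbol, so 37 genes were measured, by 84 probe sets, and all 37 passed the filter on low signal (a gene entered the test if at least 2 of the 6 arrays reached the median of that array). Each gene is represented by its brightest probe set, the one with the highest mean log2 signal over the 6 arrays, and further probe sets are given beside it.

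The study asked how siltuximab, an antibody against IL-6 that the labels call CNTO328, affects gene expression induced by IL-6 in ovarian cancer cells. Messenger RNA was measured on Affymetrix arrays in the human ovarian cancer cell lines Caov-3 and SKOV-3. In each line 1 array was made of cells given siltuximab for 4 h and then IL-6 at 30 ng/ml for 1 h, 1 array of cells given IL-6 alone at 30 ng/ml for 1 h, and 1 array of untreated cells. RNA of 3 flasks was pooled for each array, so the 6 groups have 1 array each. The 3 arrays of a line are 3 treatments and not replicates, and the labels give no dose for siltuximab. IL-6 treatment lasted 1 h in every treated group, and no group received siltuximab without IL-6.

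Proteins that enter the secretory pathway fold in the endoplasmic reticulum, and when unfolded chains build up there the sensors ERN1 (IRE1), EIF2AK3 (PERK) and ATF6 become active. ERN1 splices the XBP1 messenger RNA, and XBP1 and ATF6 then raise genes of chaperones and of degradation at the endoplasmic reticulum, while EIF2AK3 phosphorylates eIF2alpha, which lowers most translation and favours that of ATF4. Other kinases acting on eIF2alpha, such as those that sense amino acid shortage or viral RNA, feed the same ATF4 step, and ATF4 with its target DDIT3 (CHOP) controls amino acid synthesis, redox and cell death genes. Arrays read messenger RNA level and not splicing, phosphorylation or protein.

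Promoters were searched for 4 short motifs in the 250 bases before each gene's start, on both strands, in RefSeq promoters of GRCh38.p14, for 35 of the 38 genes (DERL1, DERL3 and PDIA3 were not searched). The ER stress response element (ERSE, the letters CCAAT, then any 9 bases, then CCACG), which ATF6 with NF-Y is known to bind, was found in 7 of these 35 genes (20%), namely CALR, CANX, CRELD2, HSP90B1, HSPA5, PDIA6 and XBP1, and in 25 of all 27305 genes (0.0916%). Its relative ERSE-II (ATTGG, then any base, then CCACG) was found in HERPUD1, HYOU1 and SDF2L1 (8.57% of the 35) and in 18 of all genes (0.0659%). The XBP1-type core TGACGTGG was found in HYOU1, where its bases overlap an ERSE-II match on the opposite strand, and in 213 of all genes (0.78%). The C/EBP-ATF element TGATGNAA, which ATF4 is known to bind, was found in ASNS, CEBPG, CHAC1 and HERPUD1 (11.4%) and in 1061 of all genes (3.89%). Its letters were shortened after matches had been seen. The genes were chosen by name as members of these pathways, so the shares of all 4 motifs are only a description and not a test of enrichment. The windows of 6 genes are printed because these genes return below, XBP1, HSPA5, SDF2L1 and HERPUD1 for the branch of the endoplasmic reticulum and ASNS and CEBPG for the ATF4 branch. The matched letters are in capitals and each run is written along the gene's own strand. A match is a run of letters and says nothing about whether a factor binds there.
XBP1 (chr22:28800583-28800641, minus strand), ERSE: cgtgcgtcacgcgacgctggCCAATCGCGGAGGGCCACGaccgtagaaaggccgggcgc
HSPA5 (chr9:125241371-125241429, minus strand), ERSE: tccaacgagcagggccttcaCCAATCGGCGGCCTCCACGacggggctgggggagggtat
SDF2L1 (chr22:21642094-21642144, plus strand), ERSE-II on the opposite strand: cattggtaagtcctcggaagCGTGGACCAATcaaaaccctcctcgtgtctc
HERPUD1 (chr16:56932005-56932055, plus strand), ERSE-II: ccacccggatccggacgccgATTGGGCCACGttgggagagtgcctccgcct
ASNS (chr7:97872449-97872496, minus strand), C/EBP-ATF element: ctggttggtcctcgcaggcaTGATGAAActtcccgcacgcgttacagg
CEBPG (chr19:33374051-33374098, plus strand), C/EBP-ATF element: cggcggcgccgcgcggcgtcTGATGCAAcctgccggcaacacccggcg

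Values are MAS5 signal intensities, a linear scale that the deposit scaled to a trimmed mean of 500.06 to 500.07 per array, and the 3 arrays of each line are listed in the order siltuximab plus IL-6, IL-6 and untreated. Differences are on the log2(signal + 17.1) scale, which understates the change of dim genes. Lines were compared by limma with treatment as a covariate, and treatments by limma with line as a covariate; both fits used all 6 arrays and 2 residual degrees of freedom, with Benjamini-Hochberg adjustment over the 12290 genes tested and a threshold of 0.05. The spread left over in both fits is the disagreement of the lines over a treatment, so the p-values measure that disagreement and not spread between cultures. Signals of different probe sets cannot be set against each other, so levels are compared only within a gene.

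The array of Caov-3 with IL-6 stood apart. Its ratio of the 5′ to the 3′ beta-actin probe set was 0.494, against 0.643 to 0.767 on the other 5 arrays, and on it 249 genes were at least 2-fold below both other arrays of its line, against 38 to 65 genes on each of the others. Its ratio for GAPDH did not stand apart, at 1.053 against 0.957 to 1.066 on the other 5 arrays. The poly-A control signal relative to the untreated array of the line was 1.49 in Caov-3 and 1.503 in SKOV-3 with IL-6, and 1.18 in Caov-3 and 0.996 in SKOV-3 with siltuximab plus IL-6. Arrays of one line correlated at 0.976 to 0.984 over log2 signal and arrays of different lines at 0.878 to 0.886. ERBB2, which is known to be amplified in SKOV-3, had signals of 1067, 1243 and 1017 on the Caov-3 arrays, against 733, 579.9 and 648 on the SKOV-3 arrays, which goes against the label SKOV-3. Both names are used below as labelled. Of 10 epithelial and ovarian carcinoma markers, 9 passed the filter (WT1 did not), and their summed signal was 100768 to 104507 in Caov-3, against 43428 to 51341 in SKOV-3. KRT8 and KRT18 overlapped between the lines, and the other 7 were higher in Caov-3 on every array, EPCAM by 11.6-fold, MUC1 by 60.2-fold, and KRT7 and PAX8 by less than 2-fold. CDH1 was 4763 to 5094 in Caov-3 and 11.0 to 27.5 in SKOV-3, KRT19 was 7263 to 7936 in Caov-3 and 4.37 to 57.9 in SKOV-3, and MUC16 was 593 to 859.9 in Caov-3 and 2.92 to 5.90 in SKOV-3. Of 13 listed leukocyte, fibroblast and endothelial markers, 5 passed the filter (CD14, CD79A, LCP1, COL1A1 and PECAM1), while PTPRC, CD3E, VWF, CDH5, KDR, COL1A2, COL3A1 and PDGFRB did not. Summed signals were 884 to 970.1 in Caov-3 against 367 to 740.0 in SKOV-3 for the leukocyte list. They were 3885 to 4884 in Caov-3 against 309 to 367 in SKOV-3 for the fibroblast list, of which COL1A1 was 3802 to 4826 in Caov-3 and 217 to 339 in SKOV-3. They were 429 to 1252 in Caov-3 against 170.2 to 265 in SKOV-3 for the endothelial list. Their part in the results below was not tested.

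The share of these genes that differed between the lines was near that of all genes. Of the 37 genes, 28 differed between Caov-3 and SKOV-3 (limma, adjusted p under 0.05), 17 of them higher and 11 lower in Caov-3, where 38.6% of all tested genes were called higher, 32.3% lower and 70.8% either way. Chaperones and folding enzymes were mostly higher in Caov-3, with 10 of 16 called higher and 2 lower, and genes of the ATF4 and CHOP branch were mostly lower, with 2 of 10 called higher and 7 lower. The median difference was 0.32 for the chaperones and -0.62 for the ATF4 and CHOP branch, beside 0.07 for all genes. All 3 Caov-3 arrays were above all 3 SKOV-3 arrays at 18 genes and below them at 13 genes, where 40% and 34.1% of all genes did so. Without the Caov-3 IL-6 array 29 genes were called, 16 higher and 13 lower in Caov-3.

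**Figure D1:**
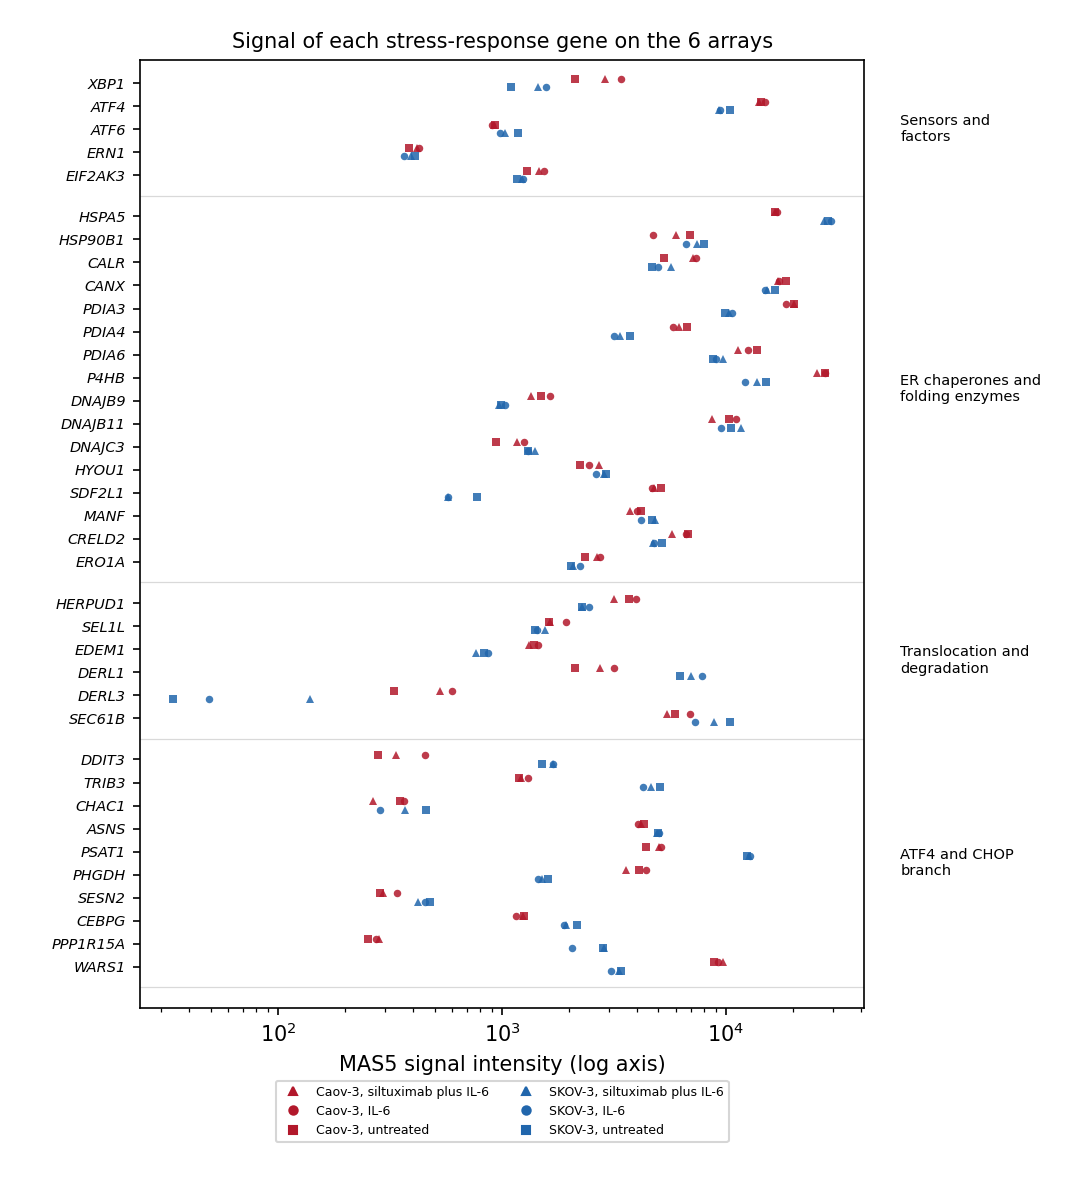
MAS5 signal intensity of each gene's brightest probe set on a log axis, 1 point per array, coloured by line and shaped by treatment, genes ordered by role. For SDF2L1 the Caov-3 arrays lie between 4667 and 5134 and the SKOV-3 arrays between 571 and 777, and for PPP1R15A the Caov-3 arrays lie between 253 and 284 and the SKOV-3 arrays between 2062 and 2847.

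Among the sensors and transcription factors, XBP1, the factor made from the messenger RNA that ERN1 splices, had signals of 2877, 3415 and 2121 in Caov-3, against 1448, 1571 and 1102 in SKOV-3. The lines did not overlap, and XBP1 was 1.01 higher in Caov-3 on the log2 scale (SE 0.09, limma adjusted p = 4.75e-05). Its second probe set was also called higher, by 1.34. ATF4, the factor of the integrated stress response, had 14073, 14987 and 14419.8 in Caov-3, against 9278, 9411 and 10415 in SKOV-3. It was 0.58 higher in Caov-3 (SE 0.07, limma adjusted p = 0.00025) without overlap.

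The 3 sensors did not pass the test. ATF6, the sensor that is cut to a transcription factor, had 921, 898 and 928 in Caov-3, against 1032, 978 and 1176 in SKOV-3. Every Caov-3 array was the lower, but the difference of -0.21 did not pass (SE 0.10, limma adjusted p = 0.112). EIF2AK3 had 1461, 1534 and 1289 in Caov-3, against 1228, 1239.7 and 1166 in SKOV-3, a difference of 0.23 (limma adjusted p = 0.0580) without overlap. ERN1 had 416, 427 and 386 in Caov-3, against 393, 365 and 408 in SKOV-3, and these arrays overlapped (0.07, limma adjusted p = 0.656). A further ATF6 probe set was called lower in Caov-3, at -0.77, and a further ERN1 probe set at -0.89. The probe sets of these sensors therefore did not all give the same answer.

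Among the chaperones, HSPA5 (BiP), the HSP70 of the endoplasmic reticulum that holds the sensors inactive, had 16507, 16985 and 16593 in Caov-3, against 27524, 29539 and 28558 in SKOV-3. The lines did not overlap, and HSPA5 was lower in Caov-3, by -0.77 on the log2 scale (SE 0.06, limma adjusted p = 2.86e-05). Its second probe set differed by -1.32. HSP90B1 (GRP94), the HSP90 of the compartment, had 6013, 4724 and 6938 in Caov-3, against 7454, 6643 and 7999 in SKOV-3. Its arrays overlapped between the lines, and within each treatment the Caov-3 array was the lower, for a difference of -0.33 (SE 0.08, limma adjusted p = 0.00745). Both HSP90B1 probe sets end in _x_at, a mark of possible cross-hybridisation to related sequences.

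The protein disulfide isomerases were higher in Caov-3. P4HB (PDI) had 25674, 27739.6 and 27600.2 in Caov-3, against 13788, 12225 and 15163 in SKOV-3, a difference of 0.98 (SE 0.08, limma adjusted p = 3.90e-05). PDIA3 (ERp57), which works with calnexin and calreticulin, had 20101, 18492 and 20173 in Caov-3, against 10372, 10664 and 9964 in SKOV-3, a difference of 0.92. PDIA4 had 6194, 5813 and 6698 in Caov-3, against 3353, 3151 and 3729 in SKOV-3, a difference of 0.87. At their brightest probe sets these genes differed by close to the same amount, and none overlapped between the lines. PDIA6 had 11378, 12512 and 13759.6 in Caov-3, against 9765, 9019.7 and 8746 in SKOV-3, a smaller difference of 0.45 (SE 0.09, limma adjusted p = 0.00368), also without overlap. Every further probe set of P4HB, PDIA3 and PDIA4 was called higher, but their sizes varied more. They were at 1.01 and 1.30 for P4HB, 0.75 and 0.69 for PDIA3 and 1.51 for PDIA4. Of the 3 further PDIA6 probe sets, 1 was not called, at 0.11, and it is the one whose name ends in neither _x_at nor _s_at, so the PDIA6 call was lost without such probe sets.

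The largest difference of the chaperones was that of SDF2L1, a partner of the J proteins of the compartment. It had 4796, 4667 and 5134 in Caov-3, against 574, 571 and 777 in SKOV-3. The lines lay far apart, by 7.49-fold or 2.91 on the log2 scale (SE 0.10, limma adjusted p = 9.98e-07).

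The lectins CALR (calreticulin) and CANX (calnexin) hold glycoproteins while they fold. CALR had 7154, 7326 and 5289.7 in Caov-3, against 5678, 4992 and 4664 in SKOV-3, and was 0.36 higher in Caov-3 (SE 0.09, limma adjusted p = 0.00914) with overlapping arrays. A further CALR probe set was called higher, at 0.43, and another, at 0.25, was not called. CANX had 17053, 17195 and 18661 in Caov-3, against 15198, 14957 and 16604 in SKOV-3, and was 0.18 higher (SE 0.06, limma adjusted p = 0.0313) without overlap. The CANX call was lost when any array except that of SKOV-3 with IL-6 was left out, and under 5 other alternatives. Leaving out either array of a treatment gives the same line difference, so that exception does not single out an array. The further CANX probe sets ranged from -0.19 to 0.07.

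The co-chaperones and secreted factors varied. DNAJB9, a J protein that brings clients to HSPA5, had 1351, 1637 and 1489.8 in Caov-3, against 970.1, 1027 and 993 in SKOV-3, and was 0.57 higher (SE 0.10, limma adjusted p = 0.00139). CRELD2, a folding factor induced with the chaperones, had 5763, 6624 and 6750.3 in Caov-3, against 4725, 4766 and 5198 in SKOV-3, and was 0.38 higher (SE 0.07, limma adjusted p = 0.00281). Neither gene overlapped between the lines. DNAJB11, another J protein, had 8702, 11085 and 10378 in Caov-3, against 11682, 9489 and 10573 in SKOV-3. These arrays overlapped, and the difference was -0.08 (SE 0.12, limma adjusted p = 0.591).

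DNAJC3, the J protein known as p58IPK, had 1164, 1254 and 937 in Caov-3, against 1407, 1308 and 1306 in SKOV-3, a difference of -0.27 (limma adjusted p = 0.0656). MANF, a secreted protein retained by the compartment, had 3747, 4022 and 4178 in Caov-3, against 4831, 4197 and 4667 in SKOV-3, a difference of -0.20 (limma adjusted p = 0.0757). Both genes were lower on every Caov-3 array without passing the test, and both were called, at -0.37 and -0.26, when either IL-6 array was left out. HYOU1, an HSP110-type exchange factor for HSPA5, had 2711, 2452 and 2220.4 in Caov-3, against 2868, 2630.2 and 2907 in SKOV-3. Its arrays overlapped, for a difference of -0.19 (limma adjusted p = 0.107).

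ERO1A, the oxidase that recharges PDI, had 2647, 2752 and 2348 in Caov-3, against 2073, 2240.4 and 2027 in SKOV-3. That probe set was 0.29 higher in Caov-3 (SE 0.08, limma adjusted p = 0.0161) without overlap. Its 2 further probe sets were called lower, at -0.92 and -0.84, so ERO1A has no settled direction. The call of the brightest probe set was lost when either siltuximab plus IL-6 array or either untreated array was left out.

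**Figure D2:**
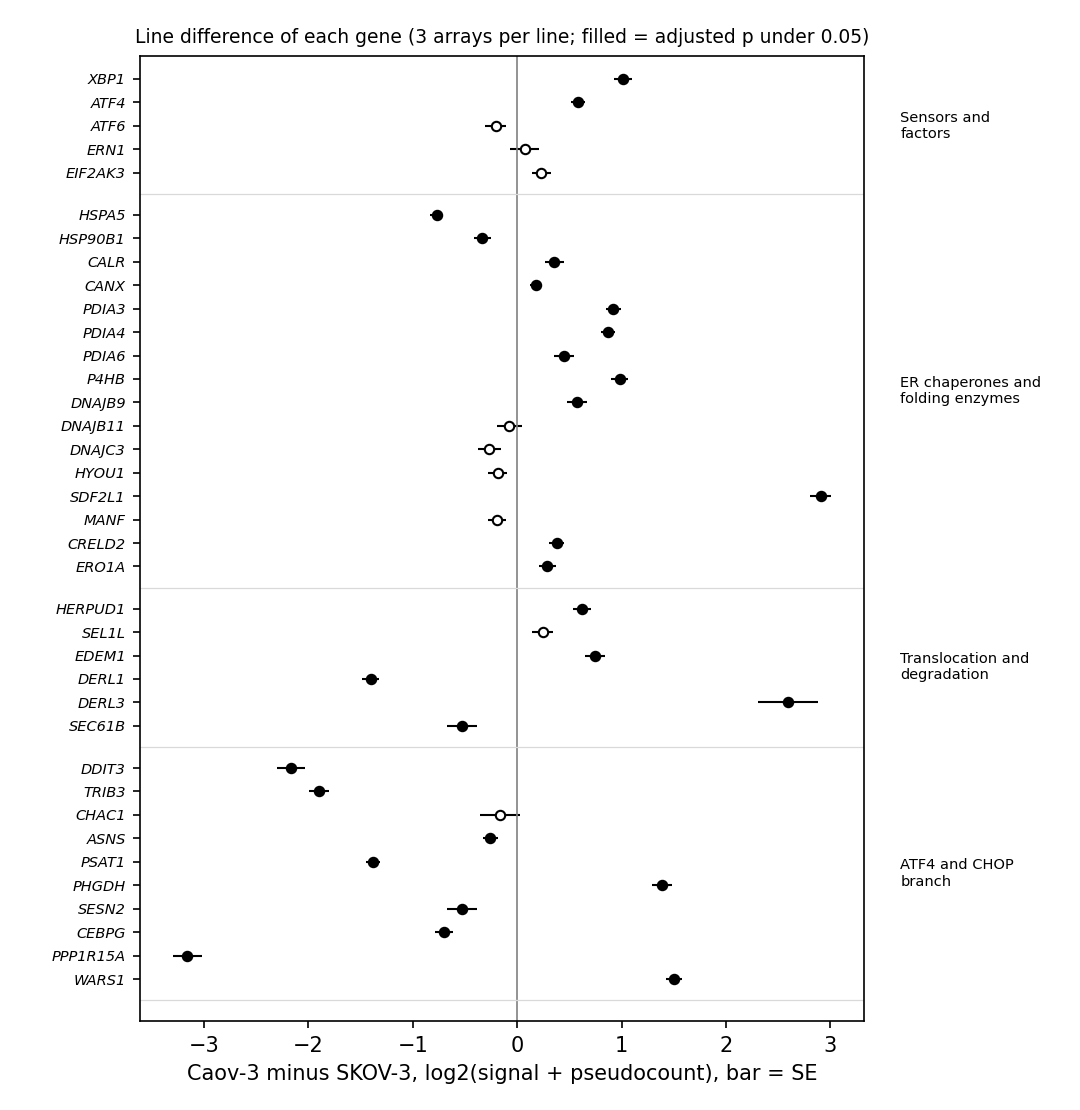
Difference between the lines, Caov-3 minus SKOV-3 on the log2(signal + pseudocount) scale, with its SE from the limma fit, for the brightest probe set of each gene; filled points passed an adjusted p of 0.05. The ATF4 and CHOP branch lies mostly left of 0, and PPP1R15A at -3.16 and SDF2L1 at 2.91 are at the extremes.

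Of the 6 measured genes of translocation and degradation, 3 were called higher and 2 lower in Caov-3, beside 38.6% and 32.3% of all genes. HERPUD1, a membrane protein that gathers the degradation machinery, had 3179.9, 3968 and 3679 in Caov-3, against 2284, 2445 and 2273 in SKOV-3, a difference of 0.62 (SE 0.08, limma adjusted p = 0.000483). EDEM1, which steers misfolded glycoproteins to degradation, had 1319, 1443 and 1395 in Caov-3, against 762, 865 and 832 in SKOV-3, a difference of 0.75 (SE 0.09, limma adjusted p = 0.000342). Neither gene overlapped between the lines, but averaging both HERPUD1 probe sets, the second of which did not pass the filter, left 0.11 and no call (limma adjusted p = 0.589). SEL1L, the partner of the ubiquitin ligase SYVN1, had 1642, 1939.7 and 1629 in Caov-3, against 1553, 1433 and 1398 in SKOV-3. Each Caov-3 array was above every SKOV-3 array, but the difference of 0.24 did not pass (SE 0.10, limma adjusted p = 0.0661).

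The derlins went opposite ways. DERL1, a channel component for degradation, had 2732, 3171 and 2119 in Caov-3, against 7017, 7862 and 6246 in SKOV-3, a difference of -1.40 (SE 0.08, limma adjusted p = 8.30e-06). All 4 of its probe sets were called lower. DERL3, its relative, had 527, 596 and 329.6 in Caov-3, against 139, 49.2 and 34.0 in SKOV-3, a difference of 2.59 (SE 0.29, limma adjusted p = 0.000175). The IL-6 and untreated SKOV-3 arrays gave DERL3 signals below the medians of all probe sets on those arrays, 80.8 and 83.9. The DERL3 difference was 1.70 under the median pseudocount and 1.53 when its probe sets were averaged. SEC61B, a subunit of the translocation channel, had 5472, 6939.6 and 5907 in Caov-3, against 8899.7, 7251 and 10459.7 in SKOV-3. Its arrays did not overlap, but the call at -0.53 (SE 0.14, limma adjusted p = 0.0128) was lost when either untreated array was left out and when the prior had no trend.

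In the ATF4 and CHOP branch 7 of 10 genes were called lower and 2 higher in Caov-3, beside 32.3% and 38.6% of all genes. PPP1R15A (GADD34), which directs a phosphatase to eIF2alpha and so restores translation, had 284, 275 and 253 in Caov-3, against 2847, 2062 and 2819 in SKOV-3, or 8.93-fold lower and -3.16 on the log2 scale (SE 0.14, limma adjusted p = 2.52e-06). DDIT3 (CHOP), the factor linked to cell death under prolonged stress, had 338, 452 and 278 in Caov-3, against 1694, 1687 and 1504 in SKOV-3, a difference of -2.16 (SE 0.13, limma adjusted p = 1.13e-05). TRIB3, a DDIT3 target and inhibitor of AKT, had 1219, 1303 and 1189 in Caov-3, against 4615, 4278 and 5090.3 in SKOV-3, a difference of -1.90. None of these 3 genes overlapped between the lines, and the second probe sets of PPP1R15A and TRIB3 were called lower too, at -3.84 and -1.78.

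The amino acid genes of this branch differed both ways. PSAT1 and PHGDH encode enzymes of the same serine pathway. PSAT1 had 5011, 5113 and 4407 in Caov-3, against 12634, 12853 and 12386 in SKOV-3, a difference of -1.38 (SE 0.07, limma adjusted p = 4.90e-06). PHGDH had 3579, 4413 and 4114 in Caov-3, against 1516, 1446 and 1614 in SKOV-3, a difference of 1.39 (SE 0.10, limma adjusted p = 1.93e-05). One was lower and the other higher in Caov-3, without overlap at either. WARS1, the tryptophan tRNA synthetase, had 9676, 9251 and 8869.5 in Caov-3, against 3323, 3057 and 3417 in SKOV-3. It was 2.83-fold higher in Caov-3 (limma adjusted p = 4.89e-06), the same way as its second probe set at 1.43 on the log2 scale.

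CEBPG, a partner of ATF4, had 1236, 1157 and 1257 in Caov-3, against 1935, 1894 and 2156 in SKOV-3, a difference of -0.70 (SE 0.09, limma adjusted p = 0.000312). SESN2, a brake on mTORC1, had 293, 340.2 and 286 in Caov-3, against 422, 452 and 478 in SKOV-3, a difference of -0.53 (SE 0.14, limma adjusted p = 0.0126). The second SESN2 probe set, at -0.695, was not called. ASNS, asparagine synthetase, had 4187, 4053 and 4294 in Caov-3, against 4932, 5054 and 4994 in SKOV-3, a difference of -0.26 (SE 0.07, limma adjusted p = 0.0145). All 3 were lower in Caov-3 without overlap, but the ASNS and SESN2 calls were lost when either siltuximab plus IL-6 array or either untreated array was left out. The ASNS call was also lost when the prior had no trend, and its sign turned, to 0.10, when both of its probe sets were averaged. CHAC1, which breaks down glutathione, had 265, 364 and 352 in Caov-3, against 370.3, 285 and 458 in SKOV-3. Its arrays overlapped, for a difference of -0.16 (SE 0.19, limma adjusted p = 0.476).

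Of the 7 genes with an ERSE match above, CALR, CANX, CRELD2, PDIA6 and XBP1 were called higher in Caov-3 and HSP90B1 and HSPA5 lower. Of the 3 with an ERSE-II match, HERPUD1 and SDF2L1 were called higher and HYOU1 was not called. Of the 4 with a C/EBP-ATF match, ASNS and CEBPG were called lower, HERPUD1 higher and CHAC1 was not called. Of all genes, 70.8% were called either way, so these counts are a description.

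Further probe sets mostly went with the brightest one. Of 76 tested probe sets, 53 were called, 29 higher and 24 lower in Caov-3, where 62.8% of all 23169 tested probe sets were called, 31.5% higher and 31.3% lower. Of 23 genes with at least 2 tested probe sets, 19 had all of them on one side of 0 and 13 had all of them called the same way. ERN1, CANX, DNAJB9 and ERO1A had a probe set on the other side, and at ERN1 and ERO1A that probe set was called.

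**Figure D3:**
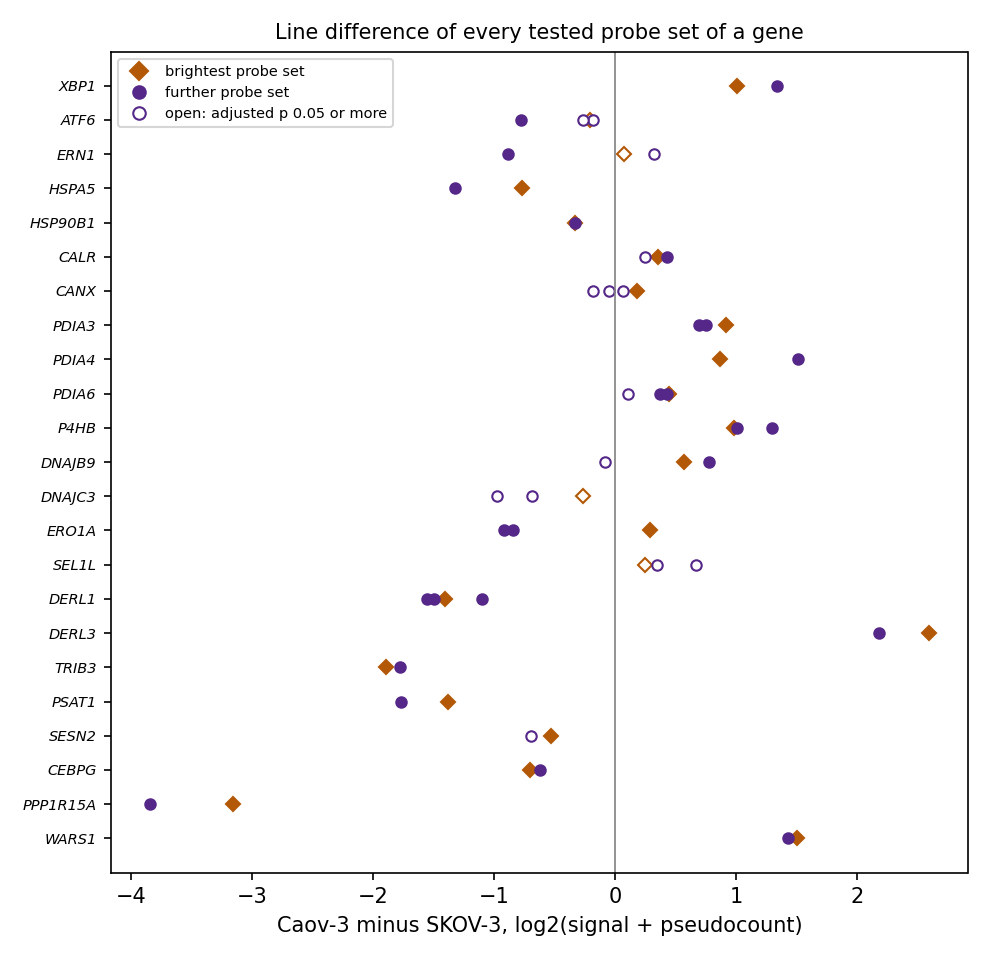
Caov-3 minus SKOV-3 difference on the log2(signal + pseudocount) scale of every tested probe set of the 23 genes with more than 1, diamonds for the brightest and circles for further ones, open where the adjusted p was 0.05 or more. ERO1A has its brightest probe set at 0.29 and its others at -0.92 and -0.84, while the 4 DERL1 probe sets lie between -1.56 and -1.10.

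The rest of both pathways was read from a list of 88 other genes, 81 of which passed the filter. Of these, 30 were called higher and 34 lower in Caov-3, with a median close to 0 beside 0.07 for all genes. These counts and those that follow stand beside 38.6% of all genes called higher and 32.3% lower. The list was chosen with earlier results of these data known, so it is not an independent check of the genes above. Other genes of the ATF4 and CHOP branch were 8 of 30 called higher and 17 lower in Caov-3, with a median of -0.38. The other endoplasmic reticulum genes were 16 of 37 higher and 12 lower with a median of 0.03, and the other sensors and regulators 6 of 14 higher and 5 lower with a median of 0.23.

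ATF3, a stress factor downstream of ATF4, had the largest difference of the 81, with 147, 158 and 132 in Caov-3 against 3242, 3127 and 3841 in SKOV-3, or -4.39 on the log2 scale (SE 0.14, limma adjusted p = 6.76e-07). It was -2.85 with all its probe sets averaged. The secreted stress signal GDF15, the hormone STC2 and the cystine transporter SLC7A11 were lower in Caov-3, at -2.44, -1.86 and -1.80, while JDP2, an AP-1 family repressor, DDIT4, an inhibitor of mTORC1, NUPR1, a stress cofactor, and CTH, of cysteine synthesis, were 1.92, 1.40, 1.37 and 1.08 higher. Of the endoplasmic reticulum genes, the ubiquitin conjugating enzyme UBE2J1, the KDEL receptor KDELR3, and SSR4 and TRAM1 of the translocation site were 2.52, 2.26, 1.28 and 1.26 higher in Caov-3. EDEM3, HSPA13, UBE2G2 and VCP, the ATPase that pulls proteins out of the membrane, were lower, at -1.47, -1.29, -1.03 and -1.01. Of the regulators, WFS1, the tRNA ligase RTCB that joins the XBP1 exons, PPP1R15B and CREB3L2 were 1.02, 1.02, 0.93 and 0.59 higher, and CREB3L1, EIF2AK4 (GCN2), MBTPS1 (the protease that cuts ATF6) and EIF2S1 (eIF2alpha) were lower, at -2.09, -0.85, -0.66 and -0.65. CREB3L1 signals in Caov-3, 57.5, 25.6 and 42.9, were below the medians of all probe sets on those arrays, so its size rests on dim signals, and it was -1.16 with a pseudocount of the median. EIF2AK4 had 822, 307 and 676 in Caov-3, against 962, 1173 and 940.3 in SKOV-3. Its difference was -0.34 once either IL-6 array was left out, so this does not single out the Caov-3 array. The EIF2AK4 call was lost without either untreated array, with no filter and with no trend in the prior. Its difference was larger under the other probe set rules, and was called under both. It was -1.62 with both EIF2AK4 probe sets averaged, and -2.39 once _x_at and _s_at probe sets were dropped. These 24 genes all passed the limma test, and CREB3L2 turned to -0.91 when probe sets ending in _x_at or _s_at were left out, and to 0.053 with no call when all its probe sets were averaged. With all probe sets averaged, GDF15 was -1.23 and HSPA13 -0.75.

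IL-6 for 1 h was tested over both lines against untreated cells. None of the 37 genes passed the limma test, and none of the 12290 genes tested did (0%); at an unadjusted p under 0.05 there were 6 of the 37 genes and 1182 of all genes. The smallest limma adjusted p of the 37 was 0.303, for XBP1, and of all genes 0.234. XBP1 differed by 0.59 (SE 0.11), with the IL-6 array above the untreated array in both lines, 3415 against 2121 in Caov-3 and 1571 against 1102 in SKOV-3. Its second probe set ran the other way, 134 with IL-6 against 209.9 untreated in Caov-3 and 43.8 against 106 in SKOV-3, and its signals are much dimmer. The other 5 genes at an unadjusted p under 0.05 were HSP90B1 at -0.41 (limma adjusted p = 0.335), DERL1 at 0.45 (0.335), CALR at 0.28, PDIA4 at -0.22 and DDIT3 at 0.42. Each of these brightest probe sets had the same sign in both lines. The second probe sets of HSP90B1 and PDIA4 kept that sign in both lines. Of the further CALR probe sets, one was 0.20 in Caov-3 and -0.05 in SKOV-3, and the other was -0.08 and -0.03. DERL1's further probe sets, at -0.22, 0.09 and 0.01, did not repeat the size of its brightest one. By role, the differences over both lines ranged from -0.15 to 0.59 among the sensors, from -0.41 to 0.28 among the chaperones, from -0.15 to 0.60 in translocation and degradation and from -0.30 to 0.42 in the ATF4 and CHOP branch. Without the SKOV-3 IL-6 array, XBP1 was at 0.67, HSP90B1 at -0.53 and DERL1 at 0.53. This comparison then rests on the Caov-3 IL-6 array alone, the one that stood apart.

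**Figure D4:**
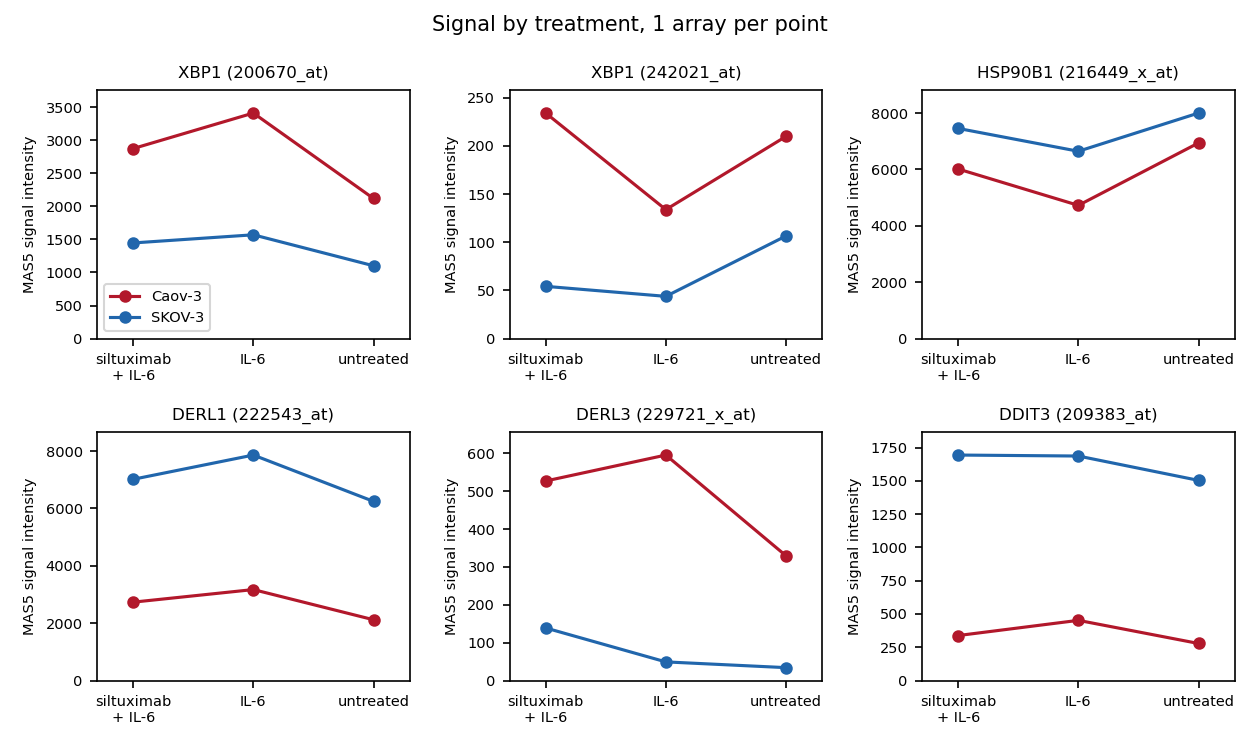
MAS5 signal intensity by treatment, 1 array per point, lines joining the arrays of one cell line, for 5 genes with the largest treatment folds or lowest p-values, XBP1 with both of its probe sets. The XBP1 probe set at the upper left is highest with IL-6 in both lines, and the second XBP1 probe set is lowest there.

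Within a line a fold rests on 1 array over 1 array and has no p, and genes at least 1.5-fold apart were counted. In Caov-3, 3 of the 37 genes were at least 1.5-fold higher with IL-6 and 0 lower, where 5.04% of all genes were higher and 6.16% lower. They were XBP1 at 0.68, DERL3 at 0.82 and DDIT3 at 0.67. The second DERL3 probe set went the other way, at -0.42, as did that of XBP1, at -0.59, and the spread of single-array log2 folds at XBP1's signal level was 0.23 (robust SD). In SKOV-3, 0 of 36 genes were at least 1.5-fold higher and 1 lower, where 3.02% and 4.59% of all genes were; this was CHAC1 at -0.65, with 285 with IL-6 against 458 untreated. The median log2 fold of these genes was 0.10 in Caov-3, beside 0.08 for all genes, and -0.13 in SKOV-3, beside -0.05. By role, the genes of translocation and degradation were higher with IL-6 at 6 of 6 genes in Caov-3 and at 4 of 5 in SKOV-3, and the chaperones at 8 of 16 in Caov-3 and 7 of 16 in SKOV-3. The ATF4 and CHOP branch was higher at 8 of 10 genes in Caov-3 and at 3 of 10 in SKOV-3. Of all genes, 7283 of 11862 were higher in Caov-3 and 4873 of 11411 in SKOV-3, so most of these counts leaned the way all genes did. Of the 36 genes with a fold in both lines, 13 were higher with IL-6 in both, 8 lower in both and 15 opposite ways. None of the other pathway genes passed 1.5-fold in one direction in Caov-3 and SKOV-3 alike.

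**Figure D5:**
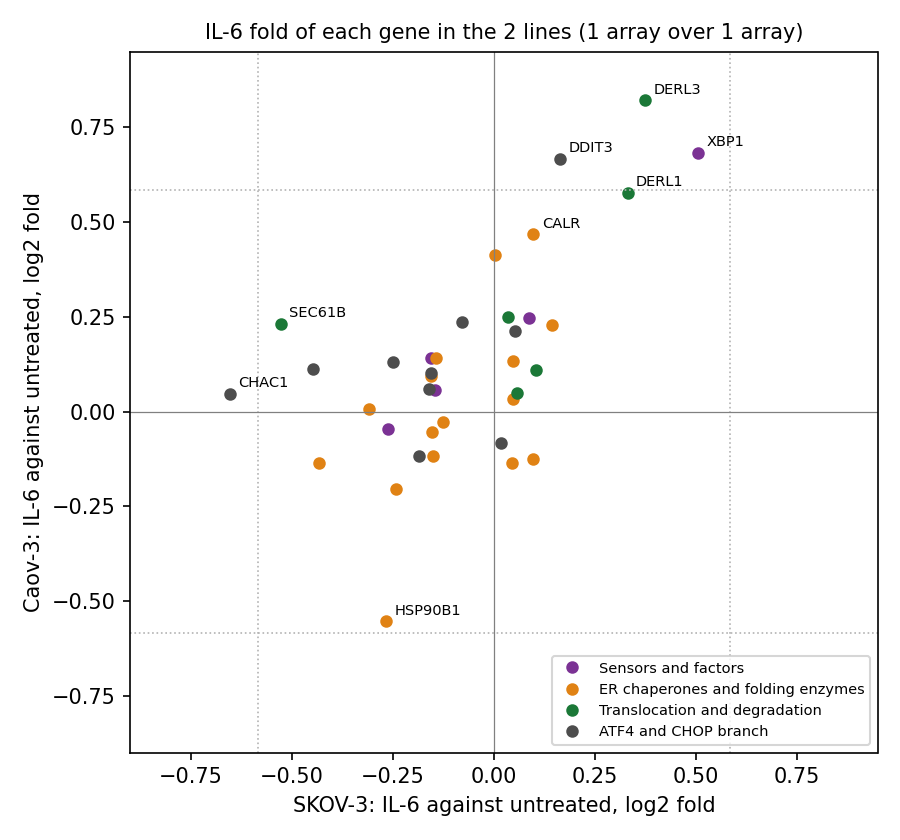
Log2 fold of IL-6 over untreated in SKOV-3 on the x axis and in Caov-3 on the y axis, 1 array over 1 array, one point per gene and coloured by role; dotted lines mark 1.5-fold. XBP1, at 0.68 for Caov-3 and 0.51 for SKOV-3, is beyond 1.5-fold in Caov-3 only; the SKOV-3 signals of DERL3, at 0.82 for Caov-3 and 0.38 for SKOV-3, were too dim for it to be counted among the 36.

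Siltuximab before IL-6 was set against IL-6 alone to ask what the antibody changes, and against untreated cells to ask what remains. Both comparisons share the siltuximab arrays, and each shares arrays with the IL-6 comparison, so their values are not independent. Against IL-6, none of the 37 genes and none of all genes passed the limma test (0%), with 1 and 398 at an unadjusted p under 0.05. The 1 gene was HSP90B1 at 0.26, and XBP1 differed by -0.18 (limma adjusted p = 0.983). Against untreated, none of the 37 and none of all genes passed (0%), with 4 and 705 at an unadjusted p under 0.05. These 4 were XBP1 at 0.41 (limma adjusted p = 0.731), CALR at 0.36, DERL1 at 0.27 and DERL3 at 1.13. At the brightest XBP1 probe set the arrays with siltuximab plus IL-6 lay between those with IL-6 and untreated in both lines, 2877 in Caov-3 and 1448 in SKOV-3. The second XBP1 probe set had 234 in Caov-3 with siltuximab plus IL-6, above both 134 with IL-6 and 209.9 untreated. In SKOV-3 that probe set had 54.2, between 43.8 with IL-6 and 106 untreated. Its difference from untreated over both lines was -0.32.

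Within a line, siltuximab plus IL-6 against IL-6 had 0 of 37 genes at least 1.5-fold apart in Caov-3, where 5.27% of all genes were higher and 2.87% lower. In SKOV-3 it had 1 higher, DERL3 at 1.23, and 0 lower, where 2.11% and 2.46% of all genes were. Against untreated, 1 gene was higher in Caov-3 (2.67% of all genes higher, 2.61% lower), DERL3 at 0.65 with its second probe set at -0.61, and 1 in SKOV-3 (2.33% higher, 4.4% lower), again DERL3 at 1.61, with none lower in either line. DERL3 in SKOV-3 had 139 with siltuximab plus IL-6 against 49.2 with IL-6 and 34.0 untreated, while its second probe set had 47.4, 34.4 and 83.8 on the same arrays and does not show the same order.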

How the data were processed

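Signal intensities of 54675 probe sets on 6 arrays were deposited by the authors as a linear MAS5 table, made with Affymetrix Expression Console per the submitters' processing notes; image processing is not given in the sources used here. Probe sets were named through the platform annotation given with the data: 41091 carried 1 symbol and were used, 1801 several symbols, 11721 none, and 62 were controls. The brightest probe set by mean log2 signal stood for each of 19775 genes. Values were taken as log2(signal + 17.1), the pseudocount being the 20th percentile of signal. Genes at or above the array median on at least 2 of 6 arrays (12290) entered limma 3.58.1 (R 4.3.3) with a trended prior, line and treatment as terms and Benjamini-Hochberg adjustment; within a line a gene entered if its brighter array reached that array's median, and its log2 fold has no test. The fits were tested on simulated data. No dates or slides were used as batches.

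The genes, their role groups, the 88 other pathway genes and the marker lists were chosen with earlier results of these data known. Every listed gene is named with its brightest probe set; of the other pathway genes, the 4 called with the largest line difference in each direction per group are named, and any past 1.5-fold in one direction in each line with IL-6. Promoter motifs were searched as spelled in RefSeq sequences with Python 3.11.15; the C/EBP-ATF letters were shortened after matches had been seen. Alternatives changed the pseudocount, the scaling, the filter, the probe set rule, the prior, the treatment term and each array left out in turn.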

Additional observations from a re-analysis of the deposited data

Results flagged for a closer look

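At some genes the arrays of the lines moved opposite ways under the same treatment, each by more than the robust SD of single-array folds at that signal level. Each value is the log2 fold of 1 array over 1 array, and the difference between the lines was not tested. How many of all genes meet the same rule was not counted, so these genes are only a description. With IL-6 against untreated, SEC61B, of the translocation channel, had a fold of 0.23 in Caov-3 and -0.53 in SKOV-3. With siltuximab plus IL-6 against IL-6, SEC61B had -0.34 in Caov-3 and 0.29 in SKOV-3, DNAJB11, a BiP co-chaperone, had -0.35 in Caov-3 and 0.30 in SKOV-3, and CHAC1, which breaks down glutathione, had -0.43 in Caov-3 and 0.36 in SKOV-3. The IL-6 arrays are shared by these comparisons, and the Caov-3 IL-6 array stood apart in its beta-actin ratio, though not in that of GAPDH. With siltuximab plus IL-6 against untreated, PDIA6, a disulfide isomerase, had -0.27 in Caov-3 and 0.16 in SKOV-3. Its further probe sets had -0.026, -0.015 and -0.095 in Caov-3 and 0.084, -0.018 and -0.034 in SKOV-3. None of them repeated the size of these folds.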

How the results depend on the processing

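Of the 28 genes called between the lines, 21 were called the same way under every alternative that measured them. The count of 28 was 23 to 30 with 1 array left out and 20 without _x_at and _s_at probe sets, where fewer genes were measured. The line fit pairs the arrays of a treatment through its treatment term, and without that term 27 were called. Because of that term, leaving out either array of a treatment gave the same line difference, so these alternatives do not single out an array. The groups have 1 array each, so no replicate number pairs them. Leaving out 1 array in turn, genes called for IL-6 over both lines ranged from 0 to 435, and listed genes from 0 to 3; the high values came without the SKOV-3 IL-6 array, the count being 3 without the Caov-3 IL-6 array and 1 without the Caov-3 siltuximab plus IL-6 array. Siltuximab plus IL-6 against IL-6 ranged from 0 to 199 genes, and against untreated from 0 to 3. Of the counts of listed genes past 1.5-fold within a line, that for IL-6 in SKOV-3 (1) was 0 under the median pseudocount and under the filter at the 75th percentile. For siltuximab plus IL-6 over IL-6, averaging all probe sets gave 2 in Caov-3, and SKOV-3 (1) had 0 under that averaging, under the 75th percentile filter and without _x_at and _s_at probe sets. Over untreated, Caov-3 (1) had 0 under the median pseudocount and the 75th percentile filter, and SKOV-3 (1) had 0 under that filter and without _x_at and _s_at probe sets.

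Signs turned as follows, and the cause was not tested. Averaging all probe sets, the line difference was -0.16 for ERN1, -0.026 for EIF2AK3, 0.10 for ASNS and -0.49 for ERO1A, and the IL-6 difference over both lines -0.11 for XBP1 and -0.043 for DERL3. Without _x_at and _s_at probe sets, the line difference was -0.92 for ERO1A and -0.91 for CREB3L2, the IL-6 difference -0.69 for DERL3 and -0.059 for CALR, and within Caov-3 the DERL3 fold was -0.42 for IL-6 and -0.61 for siltuximab plus IL-6 against untreated. DNAJB11, with 1 array left out, ranged from -0.23 to 0.10 between the lines, and was 0.10 without either siltuximab plus IL-6 array. One array per group, 1 residual degree of freedom when an array was left out, and dim signals such as DERL3 in SKOV-3 limit every treatment result.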
